A study of Drosophila melanogaster with 2 samples.

Results

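The 10 genes described here act in the asymmetric divisions of neuroblasts, the stem cells of the Drosophila nervous system. All were examined for peaks of E(spl)mδ-HLH: insc, mira, brat, pros, numb, pon, baz, aPKC, l(2)gl and spdo. They were chosen as the genes for cortical polarity and cell fate determinants of these divisions, 10 of 13945 protein-coding genes on the 6 chromosome arms used. A chromatin immunoprecipitation peak was given to a gene when its summit lay in the gene body or within 5 kb of it. By that rule 22 of the 2750 peaks in the authors' thresholded list belonged to 8 of the 10 genes. The single group held 2 biological replicates of chromatin. It came from pooled male and female whole embryos, 2 to 12 h old, of a transgenic Drosophila melanogaster line that stably expresses E(spl)mδ-HLH with GFP at its C-terminus. No other genotype, treatment or age was part of the design. The labels do not name the promoter of the transgene, and one of them calls the samples an input control although each has peaks called against a separate control. Neuroblasts are a minority of such embryos, and a peak list cannot tell binding in more cells from more binding per cell, nor does it carry a marker of cell type.

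E(spl)mδ-HLH is a basic helix-loop-helix repressor encoded in the Enhancer of split complex, whose genes answer to Notch signalling. A neuroblast divides unequally. The apical scaffold Baz, with the kinase aPKC, drives determinants to the opposite side of the cortex, and Insc ties that scaffold to the machinery that turns the spindle. On the basal side the adaptor Mira carries the transcription factor Pros and the translational regulator Brat, and Pon helps to place Numb. Numb then blocks Notch in the daughter that receives it, and the membrane protein Spdo, which Numb binds, acts in Notch signalling. Several of these genes thus act upstream of the pathway that switches E(spl) genes on.

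Each of the 8 genes had a summit within 500 bp of an annotated transcription start site of its own, as had 39.7% of all protein-coding genes given a summit. The sequences of 5 such sites are shown as examples, each within 100 bp of a summit of numb, brat, pros, baz or spdo. The summits of mira (20 bp) and insc (61 bp) were as close, but their windows are not shown, that of mira because all 130 bases are annotated UTR. Each window shown is 100 bases before the start site in lower case and the first 30 transcribed bases in capitals, on the strand of the gene, from the Release 6 genome.
numb (chr2L:9449730-9449859, plus strand): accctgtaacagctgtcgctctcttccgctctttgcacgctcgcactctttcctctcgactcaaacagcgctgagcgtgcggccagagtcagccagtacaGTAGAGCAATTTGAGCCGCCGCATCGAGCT
brat (chr2L:19158440-19158569, plus strand): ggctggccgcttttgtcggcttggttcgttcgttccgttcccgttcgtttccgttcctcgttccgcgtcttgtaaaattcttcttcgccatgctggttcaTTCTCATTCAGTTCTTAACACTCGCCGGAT
pros (chr3R:11372688-11372817, plus strand): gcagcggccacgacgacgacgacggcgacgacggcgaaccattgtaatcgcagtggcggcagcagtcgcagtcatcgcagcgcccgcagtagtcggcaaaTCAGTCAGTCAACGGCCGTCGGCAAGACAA
baz (chrX:17159906-17160035, plus strand): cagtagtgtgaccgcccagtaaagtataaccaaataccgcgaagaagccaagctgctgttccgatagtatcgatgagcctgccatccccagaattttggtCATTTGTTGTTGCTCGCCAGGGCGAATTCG
spdo (chr3R:30476584-30476713, plus strand): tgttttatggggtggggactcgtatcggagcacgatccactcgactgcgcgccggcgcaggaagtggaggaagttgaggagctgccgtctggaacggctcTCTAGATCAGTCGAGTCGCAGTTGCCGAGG

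The summit lay 15 bp upstream of the numb start site, 3 bp downstream of that of brat, 31 bp downstream for pros, 9 bp downstream for baz and 76 bp upstream for spdo. None of these 5 windows held CACGTG or CACGCG, sites recognised by E(spl) type proteins, nor the N-box CACNAG, nor GAGAGAG, on either strand. Of the windows of this length at all 19253 protein-coding start sites, 1.55% held CACGTG, 3.54% CACGCG, 15.1% CACNAG and 3.86% GAGAGAG. Of the 101 bp windows around all 22 summits, CACNAG was in 5, CACGTG in 2 and CACGCG in 1. Some of these lay near a start site of another gene, 42 bp from that of KP78a in pros and 121 bp from that of Polr1D in brat. As examples, 2 windows away from start sites are shown with the match in capitals, on the strand of the gene. The spdo window lies 1788 bp upstream of the gene and holds CACGTG from 18 bp before the summit, and the mira window lies 585 bp upstream and holds CTCGTG, the N-box read on the other strand.
spdo (chr3R:30474846-30474946, plus strand): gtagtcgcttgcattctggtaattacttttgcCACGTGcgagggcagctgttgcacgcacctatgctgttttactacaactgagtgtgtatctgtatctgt
mira (chr3R:19935655-19935755, minus strand): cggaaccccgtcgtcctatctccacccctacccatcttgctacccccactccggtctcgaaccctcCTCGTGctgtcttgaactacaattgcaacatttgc

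Peaks lay at most of these genes. Of the 10 genes 8 had a thresholded summit in the body or within 5 kb, whereas 30.4% of all protein-coding genes did. At least 2 summits were found at 7 of the 10, against 10.5% of all protein-coding genes. The count per gene ran from 5 at brat and 4 at pros, through 3 at insc and at aPKC and 2 at mira, numb and spdo, to 1 at baz and 0 at pon and l(2)gl. Long genes gather more summits by this rule. Of protein-coding genes with a body of up to 5 kb 25.2% had a summit, and the share was 43.3% for those of over 5 to 20 kb, 50.3% for those of over 20 to 50 kb and 57.7% for longer ones. The members of these span classes had summits in 2 of 3 cases (mira and spdo, not pon), 2 of 3 (insc and aPKC, not l(2)gl), 3 of 3 (brat, numb and baz) and 1 of 1 (pros). Per length of territory the 10 genes held 6.37 thresholded summits per 100 kb, while the territories of all protein-coding genes held 2.36 per 100 kb. The density was highest at the short genes spdo (16.4 per 100 kb) and mira (15.0) and lowest, among those with a summit, at baz (1.97). No test was made of any of these differences, because the genes were chosen with earlier results of these data known.

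**Figure D1:**
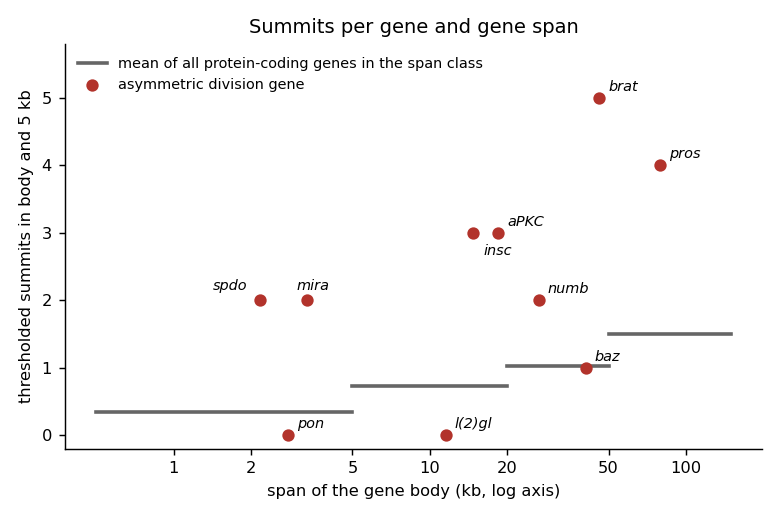
Thresholded summits in the body and 5 kb on either side of each gene (points, vertical axis) against the span of the gene body in kb (log axis), with the mean of all protein-coding genes in 4 span classes as bars. brat with 5 summits and pros with 4 stand highest, baz with 1 lies near the mean of its class (1.03), and pon and l(2)gl have 0.

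By rank the peaks ran from 65 to 2728 of the 2750 in the list, and 13 of 22 were above its median signal. The authors' signal value, an enrichment statistic of their peak caller that is comparable within a list, had a median of 175 over the 22 member peaks (range 117 to 501), and its median over all 2750 thresholded peaks was 162 (range 117 to 1477). The strongest peaks were at pros (signal 501, rank 65 of 2750), numb (349, rank 178) and brat (340, rank 193). After them came mira (278, rank 360), spdo (259, rank 434), insc (243, rank 512), aPKC (169, rank 1246) and baz (128, rank 2280). The top summits of pros and brat were nearer to a start site of another protein-coding gene (mRpL40 and Polr1D) than to one of their own. Counting only summits with no nearer start site of another gene, numb led (349), followed by mira (278), spdo (259), insc (243), pros (215), brat (192) and baz (128). For insc this rests on a tie, since its start site is also that of sktl.

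**Figure D2:**
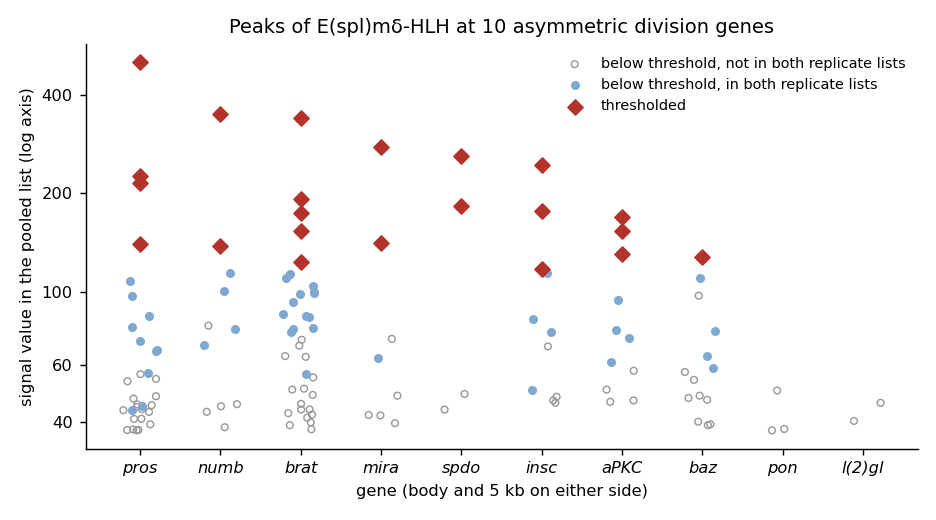
Signal value in the pooled list (log axis) of every peak with its summit in the body or within 5 kb of each of the 10 genes, ordered by the strongest peak. Diamonds are the 22 thresholded peaks, filled circles the 41 weaker peaks found in both replicate lists and open circles the remaining weaker peaks; pon and l(2)gl have open circles only.

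Each gene with a thresholded summit had one near a start site. All 8 had at least 1 thresholded summit within 500 bp of a start site of their own, and 12.0% of all protein-coding genes had one. Among genes given a summit by the 5 kb rule, 39.7% had such a promoter summit. The aPKC summit counted here, at 330 bp, was 7 bp from a start site of ckn, and insc shares its start site with sktl. Of the 22 summits, 10 were within 500 bp of a start site of the member. Within 500 bp of a start site of any protein-coding gene were 12 of the 22, near the share of all thresholded summits (55.4%). By position 8 of the 22 were upstream of the gene body, 7 in introns, 5 in 5' UTRs, 1 in a coding exon and 1 in a 3' UTR. Shares of all thresholded summits by position are not given here.

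Among the determinants, numb showed its promoter peak at one of its 2 start sites. The gene (FBgn0002973, 2L 9437469 to 9464184, plus strand) has its first start site at 9437469 and an internal one 12361 bp further on, which serves the canonical transcript. The strongest summit (peak 9449783 to 9449851) lay 15 bp from the internal site, in an intron of the transcript that begins further upstream. Its signal was 222 in replicate 1 and 126 in replicate 2, at ranks 171 and 293. At the first start site the pooled list held only a weaker peak, 21 bp away, with a signal of 77.0 and rank 6107, and no thresholded summit was nearer than 12346 bp. The internal start site leads to 556 codons, against 515 codons for the transcript from the first site. A second numb summit (peak 9460122 to 9460371, signal 138, rank 1964) fell in the 5' UTR, 41 bp before the start codon of the longer form, and it was better placed in replicate 2 (rank 1123) than in replicate 1 (rank 4241).

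brat, whose product represses translation and growth in the daughter cell, carried the most peaks. The gene (FBgn0010300, 2L 19133816 to 19179758, plus strand) has 3 start sites, and 4 of its 5 thresholded summits formed a group 2646 bp wide around the internal start site 24724 bp downstream of the first. Peak 19158418 to 19158667 (signal 192, rank 927) had its summit 3 bp from that site. The other three lay in intron 2 of the canonical transcript at 343 bp upstream, 1063 bp downstream and 1583 bp upstream of it, with signals of 174, 153 and 123. No start site of another protein-coding gene was within 20 kb of this group. The replicates weighted the group differently. In replicates 1 and 2 the start site summit held ranks 600 and 1488, whereas the summit 343 bp upstream held 4036 and 341. The ratio between the ranks of that upstream summit, 11.8, was the largest among all 22. The highest brat signal (340, peak 19134987 to 19135236, ranks 127 and 238 in the replicates) was 1296 bp inside brat and 121 bp from the start site of Polr1D, an RNA polymerase subunit gene read from the other strand, so its target cannot be read from position. The first brat start site had a weaker pooled peak 21 bp away (signal 93.0, rank 4156), and the third one had 98.4 at 281 bp (rank 3733), both under the threshold.

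pros, the homeodomain factor that ends self-renewal in the daughter cell, held the strongest summit of the set far from any start site. The gene (FBgn0004595, 3R 11328480 to 11407627, plus strand) has 4 start sites, and the peak 11392914 to 11393079 had its summit 20204 bp downstream of the last of them, and 14926 bp from the start site of another gene, mRpL40. It lay in the 3' UTR of all of its transcripts, 204 bp before the earliest annotated transcript end at 11393196. Its signal was 301 in replicate 1 and 195 in replicate 2, with ranks of 81 and 71, the closest to the top of either list among the 22. A promoter peak (11372694 to 11372943, signal 215, rank 724) sat 31 bp from the internal start site, 44308 bp downstream of the first, with ranks of 762 and 972. Transcripts from that internal site code for 1374 to 1535 codons and those from the 3 upstream sites for 1674 to 1835. Those 3 sites had no pooled peak within 500 bp. The other pros summits (signals 226 and 140) were in intron 2, at 42 bp and 2071 bp from the start site of KP78a, a gene read from the other strand inside pros.

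**Figure D3:**
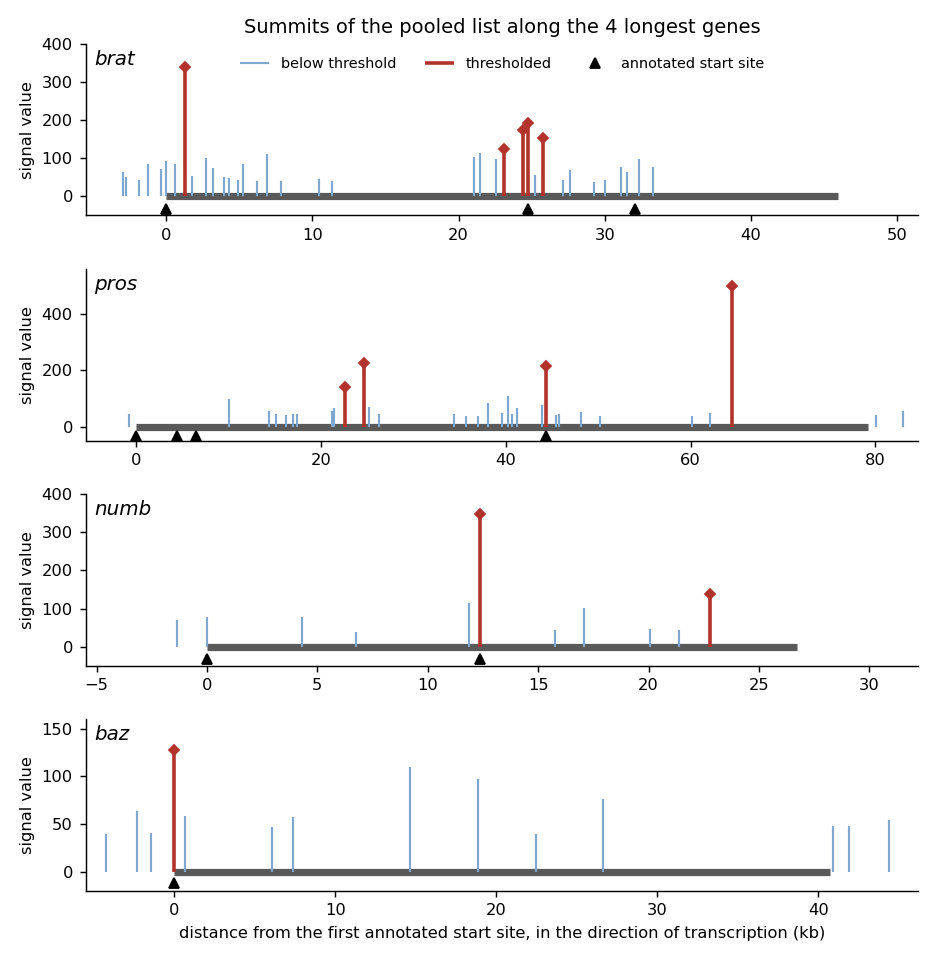
Summits of the pooled list along brat, pros, numb and baz, by distance in kb from the first annotated start site (horizontal axis) and signal value (vertical axis, with its own scale for each gene). The grey bar is the gene body, triangles are annotated start sites, and red lines are thresholded summits; in brat, pros and numb a thresholded summit stands at an internal start site and none at the first.

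In 3 of the 5 members that have several start sites and a promoter summit (brat, pros and numb), the summit was at an internal start site and not at the first. Over the 10 genes 9 of 21 annotated start sites had a thresholded summit within 500 bp. The same counts over all protein-coding genes are not given here, so neither count can be called high or low. In mira the start sites are 122 bp apart and share a summit, and in aPKC the summit was near the first site.

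spdo, for a transmembrane protein that Numb binds, is a compact gene with both of its peaks upstream. It spans 2.17 kb on 3R (FBgn0260440, 30476684 to 30478849, plus strand). The stronger peak (30474771 to 30475020, signal 259) is the one with CACGTG shown above, with a rank of 430 in replicate 1 and of 631 in replicate 2. The start site peak (30476483 to 30476732, signal 182) ranked 1368 and 924. The nearest start site of another protein-coding gene, PH4alphaEFB, was 8846 bp from the stronger summit.

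The adaptor genes parted. mira (FBgn0021776, 3R 19931799 to 19935120, minus strand), for the adaptor of Pros and Brat, had a promoter peak (19934893 to 19935142, signal 278), whose summit was 20 bp before the canonical start site. The replicates placed it close together, at ranks 359 and 422. The second mira peak (19935580 to 19935829, signal 141), which holds the N-box shown above, ranked 1737 and 1010. The mira gene lies within the span of Hs6st on the same strand, but no start site of another gene was within 6 kb of either summit. pon, for the adaptor of Numb (FBgn0025739, X 4636318 to 4639112, plus strand), had no thresholded summit nearer than 26452 bp. Its territory held 3 pooled peaks, all downstream of the gene, the strongest with a signal of 50.1 and rank 15690 of 30000, and none was found in both replicates. All 3 were nearer to the start site of CG3081 (405 to 1332 bp) than to that of pon. The list of replicate 2 alone also held a weak peak 183 bp from the pon start site, its strongest there (signal 26.5, rank 15551).

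Of the polarity genes, insc, for the adaptor of spindle orientation, had the strongest peak. insc (FBgn0011674, 2R 20821262 to 20836028, minus strand) shares its annotated start site, to the base, with sktl, a phosphatidylinositol phosphate kinase gene on the same strand, so its summits belong as much to that gene by position. The summits lay 61 bp downstream (signal 243), 434 bp upstream (176) and 2952 bp upstream (117, rank 2728) of the shared site. Replicates 1 and 2 gave ranks of 627 and 525 to the first and of 6409 and 1957 to the last.

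At aPKC, the kinase of the apical complex, all 3 summits were outside the gene body (FBgn0261854, 2R 14944458 to 14962969, minus strand), inside the divergent gene ckn. They were 330 bp, 1269 bp and 1933 bp upstream of the first aPKC start site, and 7 bp, 946 bp and 782 bp from the nearest ckn start site. The one at 330 bp (signal 154) had a rank of 991 in replicate 1 but 5490 in replicate 2. That at 1933 bp (signal 169) ranked 1395 and 591, and that at 1269 bp (signal 130), with 2 copies of CACGTG in its window, ranked 2828 and 2588.

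baz, the Par-3 scaffold (FBgn0000163, X 17160006 to 17200728, plus strand), had 1 thresholded peak (17159890 to 17160139, signal 128) with its summit 9 bp from its only start site. Its ranks were 2017 and 4257 in replicates 1 and 2. The strongest peak of baz in replicate 2 was another, in an intron 14659 bp downstream (rank 2184, against 7912 in replicate 1), which stayed under the threshold in the pooled list with a signal of 110 and rank 3065.

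l(2)gl, the cortical substrate of aPKC (FBgn0002121, 2L 9839 to 21376, minus strand), lies near the end of its chromosome arm and had no peak in its body in any list. The first peak of the arm began at 21999 in the pooled list, 22143 in replicate 1 and 27197 in replicate 2. Within 5 kb upstream were 2 pooled peaks, with signals of 45.9 and 40.4 and neither in both replicates, and the nearest thresholded summit was 45583 bp away. Whether reads could be placed in this stretch is not shown by the lists.

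Neighbouring genes limit how far these peaks can be given to the members. Of the 22 summits 14 were also in the territory of at least 1 other protein-coding gene, and 7 were nearer to a start site of such a gene than to one of the member. Keeping only summits without a nearer start site of another gene, a choice made after seeing the data, left 15 summits at 7 members. A start site at equal distance did not count as nearer. All 3 insc summits were therefore kept, although insc and sktl share their start site. It removed all 3 summits of aPKC, 3 of the 4 at pros and 1 of the 5 at brat, and with them the strongest signals of pros (501, leaving 215) and brat (340, leaving 192). By that rule 13.0% of all protein-coding genes had a summit. The numb summits, the group of 4 in brat and the promoter and 3' UTR summits of pros were in no other territory.

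Both replicates held these peaks, though not at equal ranks. All 22 summits had a summit within 100 bp in the list of each replicate, as had 97.0% of all thresholded peaks. The thresholded list was drawn from the pooled reads and the replicates, so this is no independent check. Among the top 2750 peaks of each replicate, 13 of 22 were found in both, 3 in replicate 1 alone and 6 in replicate 2 alone, and 60.5% of all thresholded peaks were found in both. The poorer rank was a median of 1.72 times the better one. It was over 3 times for 5 summits, of which aPKC had 1 that was better placed in replicate 1, while 2 at brat, 1 at numb and 1 at insc were better placed in replicate 2. Using the top 2750 peaks of 1 replicate alone, the same 8 members had a summit in replicate 1 (29.8% of all protein-coding genes) and in replicate 2 (31.4%).

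**Figure D4:**
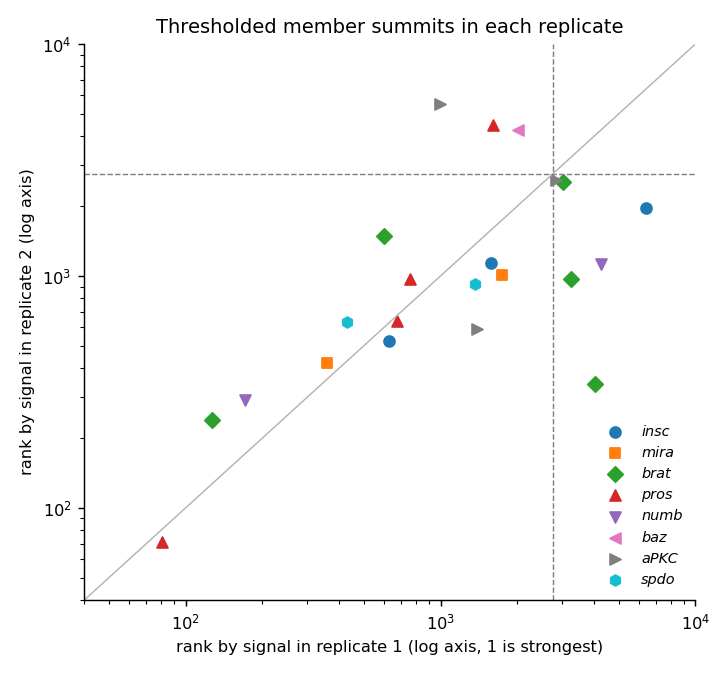
Rank by signal of each of the 22 thresholded member summits in replicate 1 (horizontal) and replicate 2 (vertical), both on log axes with 1 the strongest. The diagonal marks equal ranks and dashed lines mark rank 2750; the strongest pros summit (81 and 71) lies at the lower left, and the brat summit at 4036 and 341 lies farthest from the diagonal.

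Below the threshold the genes also carried weaker peaks. The pooled list of 30000 peaks, which includes background, placed 132 summits at the 10 genes, with 36 at brat, 32 at pros, 14 at baz and 11 each at numb, insc and aPKC. Every member had at least 1, but so had 86.6% of all protein-coding genes. The number of pooled summits per length of territory is not given for all genes, so 132 cannot be called high or low. Of the 110 under the threshold, 41 (37.3%) were within 100 bp of a summit in both replicate lists, and 31.6% of all pooled peaks under the threshold were. brat held 14 of these 41 and pros 10. Just outside the threshold were a peak at insc (signal 114, rank 2860), 484 bp upstream of the internal numb start site (signal 114, rank 2861) and in brat (113, rank 2904). Just inside was the insc summit at rank 2728.

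Base composition at the summits was near that of the whole list. Windows of 101 bp had a mean GC content of 51.0% (SD 5.61, n = 22), and those of all thresholded peaks 51.2% (SD 6.56, n = 2750). The N-box CACNAG was in 5 of 22 windows (22.7%, against 17.1% of all thresholded windows), at mira, aPKC, brat and at 2 pros summits in KP78a. CACGTG was in 2 windows (9.09% against 3.35%), the spdo and aPKC ones, and CACGCG in 1 (4.55% against 8.47%), the brat window near Polr1D. The general E-box CANNTG, which includes CACGTG, was in 11 (50% against 48.7%), and the reordered control GTGCAC in 1 (4.55% against 4.0%). GAGAGAG was in 0 of 22 and in 9.24% of all thresholded windows. Counts this small allow no statement on any motif, and a match is a description of letters.

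Other genes of asymmetric division were looked at by the same rule. A list of 28 further genes for polarity, spindle orientation, cortical transport and Notch control had 14 with a thresholded summit in the body or within 5 kb (50%, against 30.4% of all protein-coding genes), 27 summits in all. Their bodies spanned 1.7 to 67.7 kb. Longer genes have a summit more often by this rule, and these 28 were not compared by span class. The strongest was at cno, for a junctional protein that also acts in neuroblast polarity, 1915 bp inside the gene (3R 5215448 to 5215646, signal 698, rank 26, replicate ranks 21 and 26). mts, for the catalytic subunit of protein phosphatase 2A, followed (signal 561, rank 46), but its summit was 3 bp from the start site of Rack1 and 401 bp upstream of mts. neur, for the ubiquitin ligase that activates Notch ligands, had 4 summits, the strongest of signal 258 (rank 437, replicate ranks 499 and 465) at 8716 bp from its start site and 4993 bp from that of tgo. The Wdr62 summit, signal 226, was 45 bp from its start site (rank 635, replicate ranks 540 and 190). The pins, Galphai, scrib, Cdc42, jar, zip, ctp, tws, flfl and AP-2alpha genes also had summits. For 6 of the 14 genes, pins, tws, mts, flfl, zip and neur, the strongest summit was nearer to a start site of another gene, such as wdb at 36 bp for pins and uzip at 1 bp for zip. The partner of Baz and aPKC, par-6, had none, nor had mud, loco, dlg1, stau, aurA, polo and 7 further genes.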

How the data were processed

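Chromatin immunoprecipitation sequencing peaks came from 2 biological replicates of 1 group, sheared by sonication to 200 to 800 bp, per the labels. The authors deposited 4 peak lists on dm6: 1 per replicate, 1 on pooled replicates and 1 thresholded on the irreproducible discovery rate. Each was called against the same control alignment, per the deposited file listing. Aligner, peak caller and versions: not given in the sources used here. Deposited signal is the authors' enrichment value per peak and the summit offset is another deposited column, in bp. Read depth is unknown.

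Summits were placed on Ensembl release 115 genes of BDGP6, with sequence from the NCBI Release 6 genome. As a check of the builds, 13884 of 13944 canonical coding transcripts began with ATG there and 0 peaks passed an arm end. Peaks matched between lists if summits lay within 100 bp, and ranks follow signal within a list. The 10 members, the 28 further genes and all rules were chosen with earlier results of these data known, so no test was run. Named were all members, the 4 further genes with the strongest signal and the genes with the nearest other start site to a member peak; the remaining further genes were named after their values were seen. Assignment and matching were tested on simulated summits. Alternatives covered territory width, stricter lists, single replicates, matching distance, promoter distance and motif windows. Python 3.11.15, numpy 2.4.6, pandas 2.3.3 and matplotlib 3.10.9 were used.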

Additional observations from a re-analysis of the deposited data

How the results depend on the processing

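Of 53 alternatives, 48 left the result the same. For counts and the density this meant within 1.5 times the reported value, and for motif shares within the exact binomial interval. Such an interval is wide for 22 windows. For the strongest signal of each member, where only the territory width was changed, the same meant an unchanged value. The number of members with a summit stayed between 6 (gene bodies alone, without aPKC and spdo) and 8, and was 8 from either replicate alone (lowest 8, highest 8). The number of summits was 22 from either replicate alone, 14 in gene bodies alone and 13 in the strongest 1375 peaks, where baz had none. Summits found in both replicates numbered 13 when only the top 2750 peaks of each counted, and 18 within 50 bp. Member start sites had 17 summits within 2 kb in place of 10 within 500 bp. With 100 bp on either side of the summit CANNTG was in 81.8% of windows. CACNAG was then in 40.9% in place of 22.7%, a change that counted as the same. A wider window holds a short motif more often, and the shares of all thresholded windows at this width are not given here. For aPKC and spdo no signal can be given in gene bodies alone, and these cases were left out of the 53 alternatives. The density was 4.94 to 7.35 summits per 100 kb over the other territory widths. Depth is unknown, so absence of a peak at pon or l(2)gl is absence from these lists.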
